A study of Homo sapiens with 6 samples.

Results

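The HOX cluster genes are the 39 protein-coding genes of the RefSeq annotation of GRCh38.p14 whose symbols read HOXA, HOXB, HOXC or HOXD followed by a number, of 20037 protein-coding genes in all. They were chosen by symbol alone, with no measured value. They encode homeodomain transcription factors that give cells of the embryo their position along the body axis. The genes lie in 4 clusters, HOXA on chromosome 7, HOXB on chromosome 17, HOXC on chromosome 12 and HOXD on chromosome 2, and genes at the same place in different clusters (paralogues) share a number. Low numbers (anterior genes) act toward the head and high numbers (posterior genes) toward the tail and limb ends. In vertebrate embryos the clusters are opened by retinoic acid and trithorax (MLL) proteins and held silent by Polycomb complexes, and long non-coding RNAs and microRNAs are transcribed between the HOX genes.

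DNA-RNA hybrids (R-loops, in which an RNA strand pairs with DNA and displaces the other DNA strand) were mapped by DRIP-seq, immunoprecipitation with the S9.6 antibody followed by sequencing, in SH-SY5Y, a human neuroblastoma cell line of sympathetic neural crest origin. There were 2 groups of 3 samples each. The shT2 cells carried the lentiviral hairpin shT2, read here from its name as the hairpin against TDP-43, an RNA-binding protein that accumulates in motor neuron disease. The shNC3 cells carried the hairpin shNC3, read as the negative control. The labels do not state the target of either. Both groups shared the parental line, a hairpin vector with a U6 promoter and puromycin, which the protocol gives as 2 µg/mL for 2 weeks and then 1 µg/mL. Each group is therefore a selected population with 1 hairpin sequence. Whether the 3 samples of each hairpin were infected separately is not stated, so the spread behind the p-values may be technical.

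Each sample had its own list of peaks, with 49068, 50971 and 50821 peaks in the shT2 samples and 45390, 42717 and 45014 in the shNC3 samples. The peaks covered 73.5, 78.2 and 72.7 Mb in shT2, against 70.5, 62.9 and 68.0 Mb in shNC3. Library depth, recovered from the fold enrichment and p-value of the peaks, was 3.31, 3.46 and 3.08 fragments per base in shT2 and 1.79, 1.65 and 1.74 in shNC3, a ratio of means of 1.90. A deeper library can call weaker peaks, so all lists were also thinned to equal depth. The values after thinning are given for HOXD, HOXC and the called HOX genes and lncRNA genes with coverage in both groups. Thinning drops whole peaks and keeps the full width of the rest, so these values cannot show what part depth has in peak length. The measure used throughout is covered length: the bases of a gene, with 2 kb added on both sides, that lie under called peaks. It states how much of a locus was called, not how strong the signal was there, and a stretch called in part of the cells cannot be told apart from the same stretch called in all of them. For comparisons each sample was scaled so that all 6 had the same total covered length, and differences between hairpins are on the log2(scaled covered bp + 500) scale, which understates the change of genes with short coverage.

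Peaks lay in the HOXD cluster and at the anterior end of HOXC, and none was listed in HOXA or HOXB. Of the 39 HOX genes, 27 (69.2%) had no peak in any sample, against 34.9% of all protein-coding genes. The other 12 had a peak in at least 1 sample, 6 of them in all 6 samples. As other families that lie in clusters, 8 of 53 clustered protocadherin genes and 12 of 69 replication-dependent histone genes had no peak in any sample. All 11 HOXA genes and all 10 HOXB genes were among the 27, across windows of 111 kb and 204 kb. The same was true of the 6 long non-coding RNA genes annotated in the HOXA window, HOTTIP and HOTAIRM1 among them, and of the 8 in the HOXB window. The listing of no peak sets no limit on weak hybrid signal, because the read coverage below the peak threshold was not used here. Where peaks were present, they marked paralogue positions 3 to 6 and 8 to 12. Positions 1, 2, 7 and 13 had none in any cluster.

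**Figure D1:**
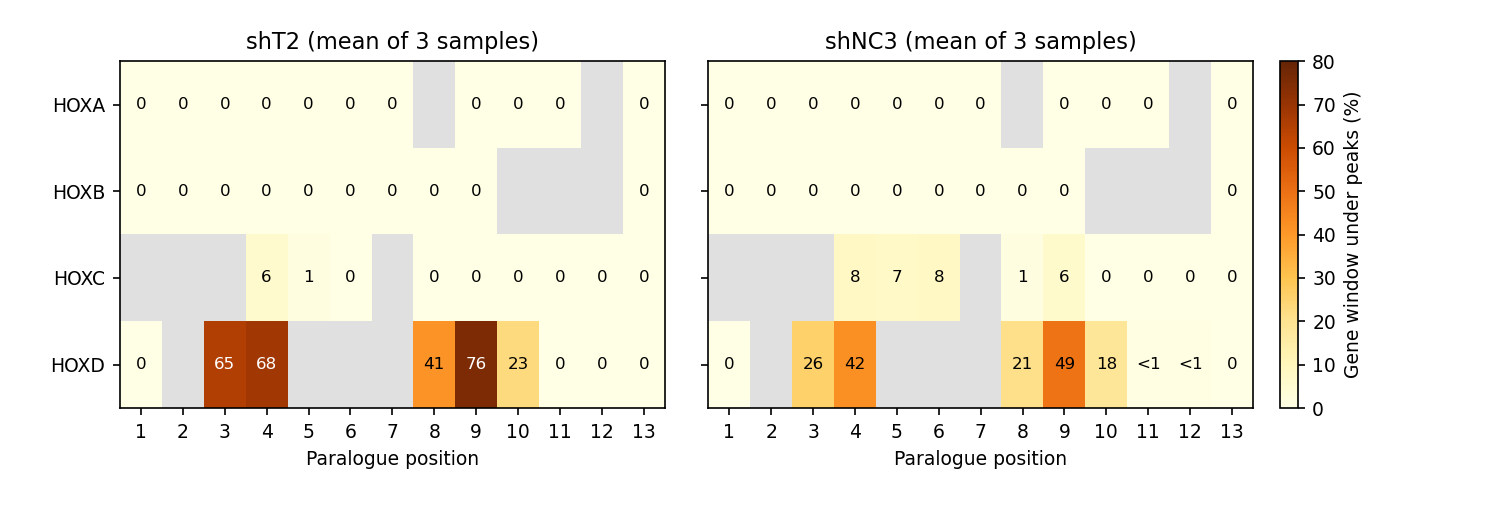
Each cell is 1 HOX gene, placed by cluster (rows) and paralogue position (columns), and its number and colour give the percent of the gene window (gene plus 2 kb on both sides) under peaks, as the mean of 3 samples, for shT2 on the left and shNC3 on the right. Grey cells have no gene. The HOXA and HOXB rows are 0 throughout, and the darkest cells are HOXD9, HOXD4 and HOXD3, at 75.6%, 68.3% and 65.3% in shT2, against 49.3%, 42.0% and 25.7% in shNC3.

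The HOXD cluster was covered over more than double the length in shT2. From 2 kb outside HOXD13 to 2 kb outside HOXD1, a window of 107 kb, peaks covered 39111, 39894 and 38972 bp in the shT2 samples, against 17411, 10908 and 14827 bp in the shNC3 samples. These lengths are 36.4%, 37.1% and 36.3% of the window in shT2 and 16.2%, 10.2% and 13.8% in shNC3. Over the merged windows of all protein-coding genes the share of bases lay between 4.94% and 5.31% with shT2 and between 4.33% and 4.85% with shNC3. HOXD stood above this pooled share with both hairpins. Long genes weigh most in the pooled share, which is not a mean over genes. After scaling, the cluster averaged 37.3 ± 0.986 kb in shT2, against 15.1 ± 2.63 kb in shNC3 (n = 3, SD), a ratio of 2.47 and a difference of 22.2 kb. The groups did not overlap. The two-sided exact permutation test gave p = 0.1, the smallest that 3 samples against 3 allow, and 0.4 adjusted over the 4 clusters. The difference was 22.7 kb at equal depth and 20.8 to 23.4 kb when any 1 sample was left out.

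The HOXD peaks formed a block with a shared end on the HOXD10 side, and on the HOXD1 side its end differed between samples. A peak began at 176120306 in all 6 samples. In all 3 shT2 samples and in shNC3 replicate 2 the first covered base was 176120306, between HOXD10 and HOXD9. The other 2 shNC3 samples each had 1 isolated short peak farther toward HOXD13, of 300 bp inside HOXD11 in replicate 1 and of 337 bp between HOXD12 and HOXD11 in replicate 3. On the HOXD1 side the block ended at 176179993 in shT2 replicates 1 and 2, inside the long non-coding RNA gene HAGLR, and shT2 replicate 3 had 1 further peak of 322 bp ending at 176186174. In shNC3 the last covered bases were 176176848, 176168560 and 176170282. HOXD13, the gene of the limb tips and genital tubercle, and HOXD1, the most anterior gene, lay outside the block and had no peak in any sample.

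**Figure D2:**
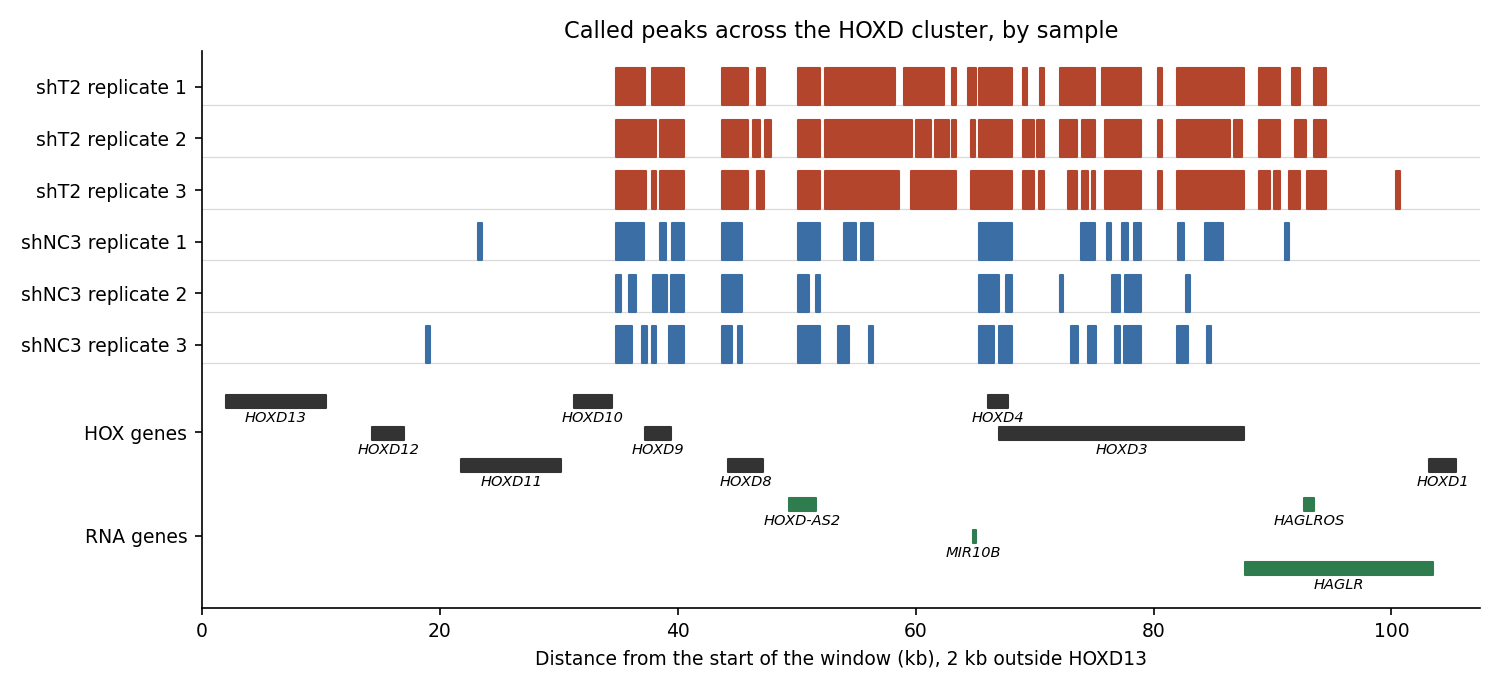
Called peaks in each sample (coloured bars, shT2 in the upper rows and shNC3 in the lower) across the HOXD window, against distance in kb from the window's start 2 kb outside HOXD13. Black bars are HOX genes and green bars are RNA genes, of which MIR10B is drawn wider than its true length to be visible. The shT2 rows are more filled between HOXD9 and HAGLR, with gaps between their 19 to 23 peaks and 36.3% to 37.1% of the window covered. The shNC3 rows are more broken, with 13 to 18 peaks and 10.2% to 16.2%.

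The HOXD peaks were more numerous in shT2, and the longest of them were longer. There were 19, 23 and 22 HOXD peaks in the shT2 samples, with longest peaks of 5882, 7314 and 6209 bp, against 16, 13 and 18 in the shNC3 samples, with longest peaks of 2730, 1656 and 1898 bp. Their median widths overlapped between the hairpins, at 1898, 1141 and 890 bp in shT2 and 983, 607 and 740.5 bp in shNC3. The strongest HOXD peak stood at the 95.0th, 96.3rd and 94.6th percentile of fold enrichment within its own shT2 list and at the 87.9th, 89.5th and 82.0th within its own shNC3 list. The lists differ in length and depth, so these ranks cannot show whether the signal differed between hairpins. Merged over all samples, HOXD held 19 regions, of which 7 were present in all 6 samples, 7 in every shT2 sample and no shNC3 sample, and none in the reverse pattern. The top fold enrichment of the 7 regions of shT2 alone ran from 3.39 to 7.02. The share of such regions over all chromosomes is not given here. By bases, 45.8 kb of HOXD was covered in any sample. Of these bases, 14.5% were covered in all 6 samples and 30.2% in the 3 shT2 samples and no shNC3 sample. Over all chromosomes these shares were 34.4% and 5.89%. Neither the regions nor these bases were counted at equal depth, so the part of depth in them was not tested.

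The HOXD genes and the stretches between them were covered to a similar extent. The gene spans were covered over 36.2%, 36.3% and 33.8% in shT2, against 16.8%, 12.2% and 14.5% in shNC3. The gaps between them were covered over 39.4%, 40.8% and 41.5% in shT2 and 16.9%, 8.92% and 14.2% in shNC3. The widest region, chr2:176137892-176148898 (hg38), lies in the gap between HOXD8 and HOXD4. It was covered over 9571, 10009 and 10030 bp in shT2, against 2031, 0 and 1237 bp in shNC3, so every shT2 sample exceeded every shNC3 sample. The next in width were chr2:176120306-176125995 over HOXD9, with 5146, 5349 and 4843 bp in shT2 against 3779, 3222 and 3437 bp in shNC3, and chr2:176167460-176173072 inside HOXD3, with 5613, 5142 and 5613 bp against 2086, 319 and 1292 bp. The 7 regions present in every shT2 sample and no shNC3 sample comprised 1 at the end of HOXD8, 3 inside HOXD3 and 3 in HAGLR, and each was covered over between 287 and 1726 bp per sample.

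Of the 39 HOX genes, 8 had a peak in at least 3 of the 6 samples and were tested in a limma fit over all 11771 protein-coding genes that met this condition. At a Benjamini-Hochberg adjusted p under 0.05, 4 were higher in shT2 and 2 were lower, and 2 were not called. In the same fit 51.3% of all tested genes were called, 24.2% higher and 27.2% lower, so the 6 calls among 8 members are to be read against a background in which calls were common. The groups did not overlap for 6 of the 8, and 65.0% of all tested genes had groups that did not overlap. One of the lower calls, HOXC6, had no peak in any shT2 sample and met the condition through shNC3 alone, so that call was built in. It also shares its peak region with HOXC5, the other lower call. Without HOXC6 4 of 7 members were higher and 1 was lower, against 22.8% and 25.5% of the 11060 genes with a peak in both groups. The median log2 difference was 0.27 over the 8 and -0.08 over all tested genes. Without scaling to the total covered length, 60.9% of all called genes were higher, against 47.1% with it, and the median over all tested genes was 0.06. The 8 members kept their calls, with HOXD3 at 1.30 and HOXC5 at -1.45. All 4 genes that were higher lay in HOXD and both that were lower lay in HOXC.

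HOXD3, an anterior gene and the longest of the cluster, changed most among those higher. Its window was covered over 16326, 16102 and 15677 bp in the shT2 samples and 7439, 4702 and 6799 bp in the shNC3 samples. Before scaling, every shT2 sample was more than double every shNC3 sample. After scaling, shT2 replicate 2 (14.6 kb) was less than double shNC3 replicate 1 (7.49 kb). The scaled means were 15.2 ± 0.574 kb in shT2, against 6.63 ± 1.16 kb in shNC3 (n = 3, SD). The log2 difference was 1.15 (SE 0.12, limma adjusted p = 0.000280), and 1.21 with equal depth. HOXD4, its neighbour and a gene of the hindbrain and cervical region, had 3644, 3810 and 4180 bp in shT2, against 2730, 2105 and 2311 bp in shNC3. Its log2 difference was 0.47 (SE 0.12, limma adjusted p = 0.0153). The windows of HOXD3 and HOXD4 share bases, so these values are not independent. HOXD4 was not called in the gene span alone, where its log2 difference was 0.15 (limma adjusted p = 0.434). Without shT2 replicate 3 it was 0.41 (limma adjusted p = 0.0636), and at equal depth 0.51.

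HOXD8, a trunk gene, was covered over 2794, 3249 and 2658 bp in shT2 and 1637, 1637 and 1119 bp in shNC3. The lowest shT2 sample lay above the highest shNC3 sample, and the log2 difference was 0.67 (SE 0.18, limma adjusted p = 0.0168). The part next to its start, chr2:176129234-176131370, was called over all 2137 bp in every shT2 sample and over 1637, 1637 and 1119 bp in shNC3. The part near its other end, chr2:176131801-176133314, was called over 657, 1112 and 521 bp in shT2 and not at all in shNC3. The call was lost when shT2 replicate 2 was left out (log2 difference 0.63, limma adjusted p = 0.0604). At equal depth the log2 difference was 0.70.

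HOXD9, a gene of the lumbar level, was the most completely covered member. It had 4733, 4936 and 4430 bp in shT2, against 3366, 2809 and 3024 bp in shNC3, with no overlap between the groups. Its log2 difference was 0.41 (SE 0.09, limma adjusted p = 0.00892). Inside the gene itself 1675, 1878 and 1372 bp were covered in shT2 and 484, 1153 and 760 bp in shNC3. In the gene span alone the log2 difference was 0.63, with limma adjusted p = 0.0794, and with the margins at equal depth it was 0.44.

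HOXD10, the next gene toward HOXD13, had 1632 bp in each of the 3 shT2 samples and 1632, 958 and 1364 bp in the shNC3 samples. Its groups overlapped and it was not called (log2 difference 0.13, SE 0.19, limma adjusted p = 0.576). None of this coverage lay inside HOXD10: the gene span was at 0 in all 6 samples, and the bases counted for it are those between HOXD10 and HOXD9 that the 2 kb margin takes in. The recurring 1632 bp runs from the peak start at 176120306 to the edge of that margin. HOXD11 had 1 peak in shNC3 replicate 1 (300 bp) and none elsewhere. HOXD12 had 171 bp in its window in shNC3 replicate 3 and none elsewhere, and both were left untested.

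**Figure D3:**
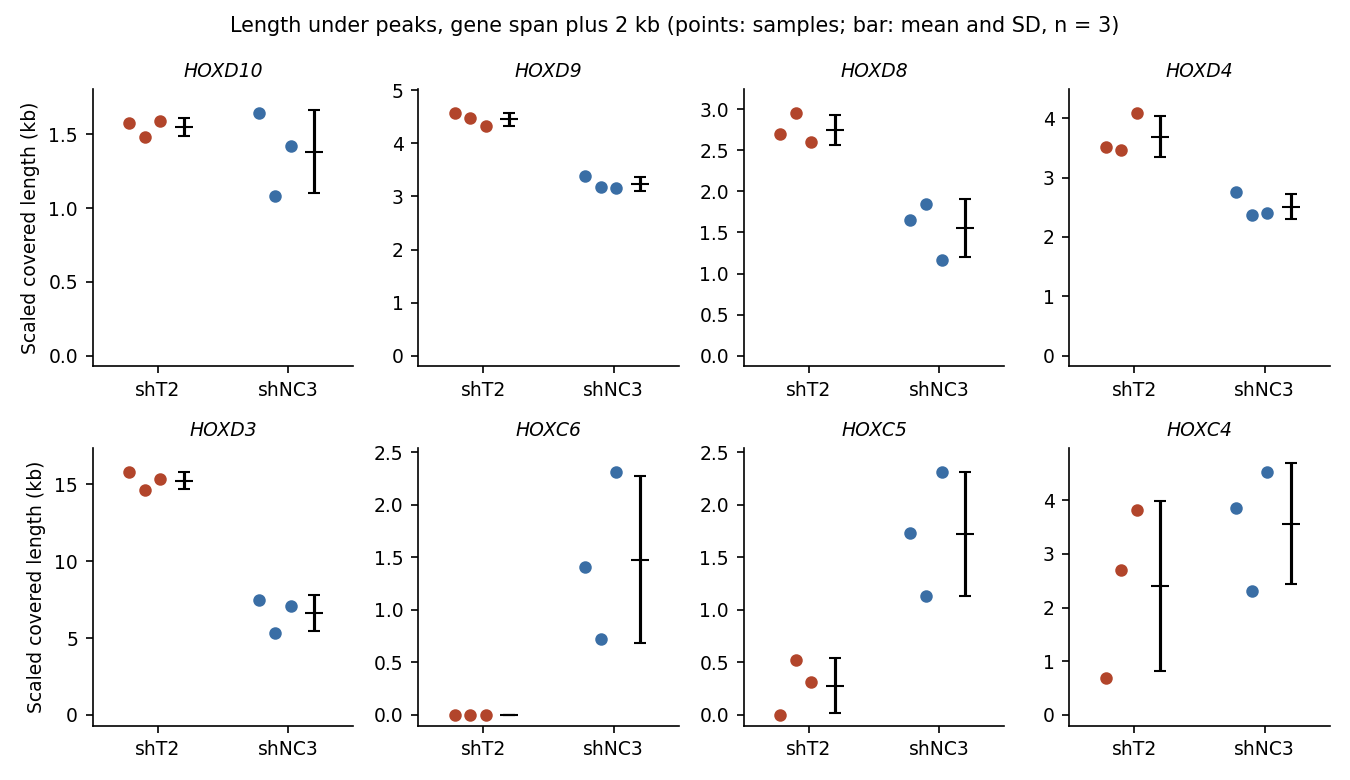
Scaled covered length in kb of the 8 tested HOX genes, gene span plus 2 kb. Points are samples, shT2 in the left column of each panel and shNC3 in the right, and black bars are the mean with its SD (n = 3). HOXD3 averages 15.2 kb in shT2 and 6.63 kb in shNC3, HOXC6 is at 0 in all shT2 samples, and the groups of HOXD10 and HOXC4 overlap.

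The promoter windows show where the block touched the gene starts. RefSeq windows of 250 bases before to 50 bases after a start were at hand for 20 of the 39 members, with 26 distinct windows on GRCh38.p14, and 23 of these lay under no peak in any sample. The windows of HOXD8 and HOXD4 lay wholly under peaks in all 6 samples. The window shared by HOXC4 and HOXC5 lay under peaks in the 3 shNC3 samples only, over 300, 217 and 300 bp. The start of HOXD10 had no peak, although the block begins just past the gene. These 4 windows are printed because they span the patterns seen. All are on the plus strand, 5′ to 3′, and CG pairs are in capitals.
HOXD8, chr2:176129455-176129754, all 6 samples: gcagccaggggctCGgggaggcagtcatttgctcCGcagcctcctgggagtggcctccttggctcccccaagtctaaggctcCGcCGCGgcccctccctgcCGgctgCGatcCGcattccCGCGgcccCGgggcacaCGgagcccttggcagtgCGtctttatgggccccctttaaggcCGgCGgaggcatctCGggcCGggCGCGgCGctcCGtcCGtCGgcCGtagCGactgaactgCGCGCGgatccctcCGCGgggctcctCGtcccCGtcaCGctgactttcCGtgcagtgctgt
HOXD4, chr2:176151300-176151599, all 6 samples: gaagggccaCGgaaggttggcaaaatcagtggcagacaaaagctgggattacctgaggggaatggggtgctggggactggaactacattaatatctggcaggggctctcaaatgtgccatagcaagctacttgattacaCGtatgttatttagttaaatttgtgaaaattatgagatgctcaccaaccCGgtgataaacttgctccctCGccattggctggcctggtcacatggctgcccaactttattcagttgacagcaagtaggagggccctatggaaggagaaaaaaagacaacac
HOXC4 and HOXC5, chr12:54016638-54016937, 3 shNC3 samples: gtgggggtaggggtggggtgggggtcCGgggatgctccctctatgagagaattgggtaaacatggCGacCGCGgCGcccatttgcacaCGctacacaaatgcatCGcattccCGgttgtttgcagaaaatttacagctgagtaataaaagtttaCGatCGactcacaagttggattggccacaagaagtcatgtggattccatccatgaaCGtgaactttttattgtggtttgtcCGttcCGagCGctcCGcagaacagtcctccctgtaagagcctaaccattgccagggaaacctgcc
HOXD10, chr2:176116528-176116827, no sample: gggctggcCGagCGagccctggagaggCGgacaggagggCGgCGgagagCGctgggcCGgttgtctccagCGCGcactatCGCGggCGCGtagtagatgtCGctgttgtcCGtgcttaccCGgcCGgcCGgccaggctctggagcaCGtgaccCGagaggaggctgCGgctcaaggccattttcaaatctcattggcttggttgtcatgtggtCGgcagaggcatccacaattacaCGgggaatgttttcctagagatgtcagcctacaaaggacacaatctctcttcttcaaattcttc

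Covered and uncovered windows both ranged widely in CG content. The HOXD8 window had 34 CG pairs and 71.7% G or C, and the HOXD4 window, covered as fully, had 4 CG pairs and 47.3%. The uncovered HOXD10 window had 23 CG pairs, and the HOXC4 and HOXC5 window had 15 CG pairs and 51.7%. The 16 HOXA windows, none of which was covered, ranged from 43.7% to 76.3% with a median of 55.8%. The median over all 22078 protein-coding promoter windows was 62.3%. Skew of G over C was taken as (G − C)/(G + C) on the gene's strand. Its median was 0.102 over the 8 HOXD windows and 0.0204 over all protein-coding windows, as a description with no test. Of the HOXD windows, only those of HOXD8 (-0.0698) and HOXD4 (0.155) were covered. The uncovered HOXD windows ranged from 0 at HOXD3 to 0.162 at HOXD13. The windows at hand for HOXD3 and HOXD1, with 25 and 36 CG pairs, lay under no peak. The HOXD3 window, chr2:176157057-176157356, is at a start inside the annotated gene span. That span begins at 176152529, a base that lay under a peak in every sample except shNC3 replicate 2.

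The ends of the HOXD peaks were shared to the base. Of 222 peak ends in the HOXD window, 91 (41.0%) fell at 22 positions used by 3 or more samples, and 7 positions were used by all 6. In HOXC 14 of 76 ends (18.4%) fell at 4 such positions. The protocol cut the DNA with BsrGI (TGTACA), EcoRI (GAATTC), HindIII (AAGCTT), SspI (AATATT) and XbaI (TCTAGA) before immunoprecipitation, palindromes of equal length that read alike on both strands. No sequence of the whole HOXD cluster was used here, so the sites were looked up in the promoter windows of all genes. There, 570 of 572 peak ends shared by 3 to 6 samples (99.7%) lay within 2 bp of the centre of such a site. The share was 3.10% for ends seen in a single sample and 0.483% for all positions in the windows. The 2137 bp peak at the start of HOXD8 had the same 2 ends in all 3 shT2 samples. Whether the shared HOXD ends lie at such sites was not tested.

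The HOXC cluster, of 9 genes in 121 kb, was sparsely covered. Peaks covered 706, 2976 and 3904 bp in the shT2 samples and 4667, 2368 and 4842 bp in the shNC3 samples, between 0.583% and 4.00% of the window. The groups overlapped. After scaling the cluster had 0.681 to 3.81 kb in shT2, against 2.67 to 5.05 kb in shNC3, and the difference of -1.74 kb had a two-sided exact permutation p of 0.3 (0.6 adjusted over the 4 clusters). Without shT2 replicate 1, the sample with the shortest HOXC coverage, the difference was -0.88 kb, and at equal depth it was -1.59 kb. No base of HOXC was covered in all 6 samples. The HOXC genes tested were HOXC4, HOXC5 and HOXC6, whose annotated spans share a start and lie within each other, so a peak at that start counts for all of them.

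The start shared by HOXC4, HOXC5 and HOXC6 was the only HOXC region in all samples of 1 hairpin and none of the other. At chr12:54016556-54019081, peaks covered 1396, 638 and 2210 bp in the shNC3 samples and none was listed in the 3 shT2 samples. HOXC6, a thoracic-level gene, had no other peak, so it was listed at 0 in shT2 and had 1.48 ± 0.795 kb in shNC3 (SD, n = 3). It met the minimum of 3 samples through shNC3 alone, so its call was built in, and neither its p nor a fold is given in the text. HOXC5, next to it, had 0, 578 and 320 bp in shT2, against 1723, 1001 and 2210 bp in shNC3. It was lower, by a log2 difference that was -1.54 (SE 0.35, limma adjusted p = 0.00848) and -1.52 at equal depth, and the groups did not overlap. Both calls counted the same start region. With only peaks of at least 5-fold enrichment neither gene had enough samples with a peak to be tested.

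HOXC4, the most anterior HOXC gene, had 706, 2976 and 3904 bp in shT2 and 3840, 2055 and 4331 bp in shNC3, with overlapping groups (log2 difference -0.64, SE 0.47, limma adjusted p = 0.284). Its far end, chr12:54054513-54056561, was the only HOXC region present in all 6 samples, with 706, 1035 and 865 bp in shT2 and 1301, 464 and 982 bp in shNC3. Counting only 2 kb around each gene end, HOXC4 was called lower (log2 difference -1.03, limma adjusted p = 0.0400). HOXC9 had 827 and 511 bp in shNC3 replicates 1 and 3, HOXC8 had 313 bp in shNC3 replicate 2, and neither had a peak in shT2. HOXC10 to HOXC13, the posterior genes of the cluster, had no peak in any sample.

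**Figure D4:**
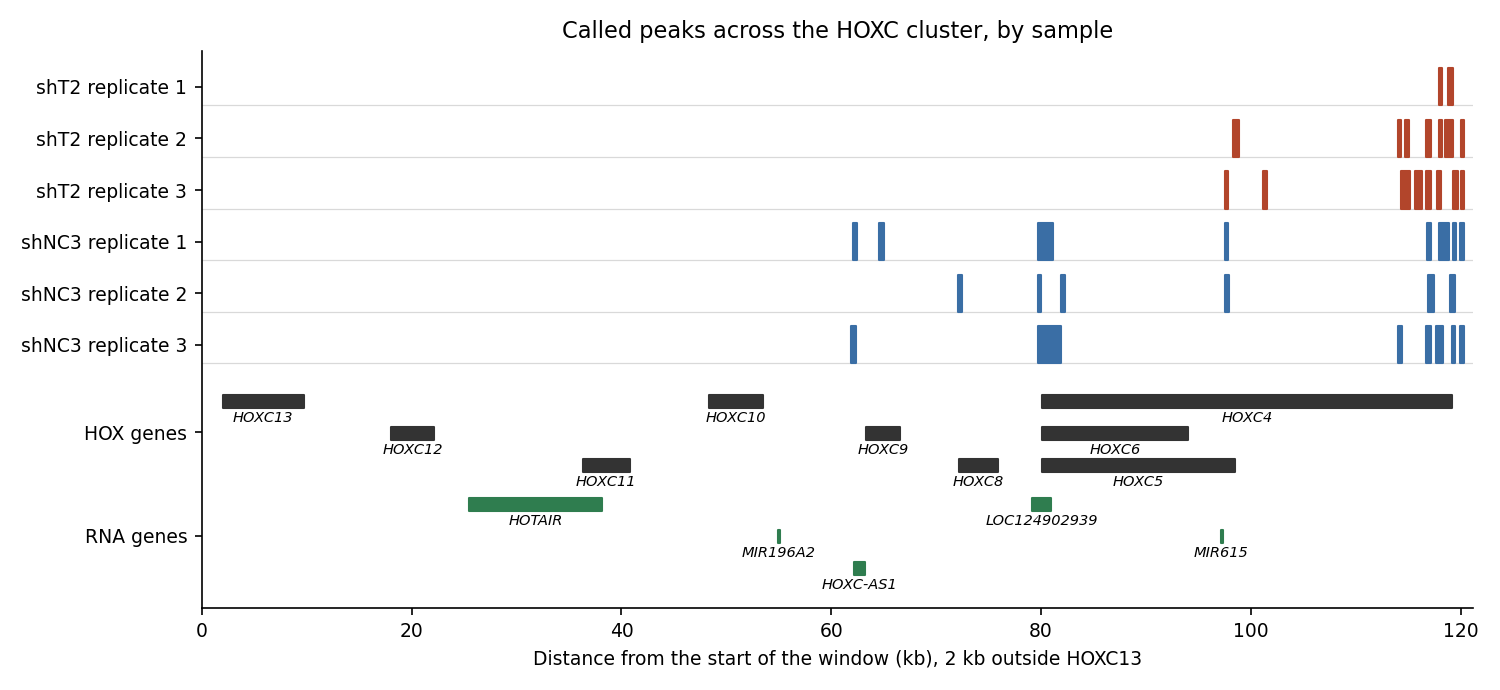
Called peaks in each sample across the HOXC window, against distance in kb from the window's start 2 kb outside HOXC13, drawn as for HOXD. Peaks gather at the far end of HOXC4 in both groups, and the start shared by HOXC4, HOXC5 and HOXC6 near 80 kb is covered in the 3 shNC3 samples, over 638 to 2210 bp, and in no shT2 sample.

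Grouped by paralogue position, with each base counted once within a group, the difference in kb was largest in positions 1 to 4. Position 3 differed by 8.60 kb and position 4 by 0.0047 kb, and positions 1 and 2 had no peak. The lengths were not set against window length, and bases farther than 2 kb from a gene are left out. The window of HOXC4 overlaps those of HOXC5 and HOXC6, so their shared bases count both in positions 1 to 4 and in positions 5 to 8. The windows of positions 1 to 4 were covered over 18.1 ± 1.31 kb in shT2, against 10.2 ± 2.23 kb in shNC3 (scaled values, n = 3, SD), and the groups did not overlap. Positions 5 to 8 had 2.70 to 3.47 kb in shT2, against 3.33 to 3.47 kb in shNC3, with overlapping groups. Within them position 8 was longer in shT2, at 2.75 ± 0.182 kb, against 1.67 ± 0.517 kb in shNC3, while position 5 had 0.279 ± 0.264 kb in shT2, against 1.72 ± 0.588 kb in shNC3. Positions 9 to 13 had 4.85 ± 0.119 kb in shT2, against 4.29 ± 0.651 kb in shNC3, and the groups overlapped. Position 4, which joins HOXC4 and HOXD4, had 6.08 ± 1.85 kb in shT2, against 6.08 ± 1.21 kb in shNC3. Simple sums over the genes count shared bases more than once, those of HOXC5 with HOXC6, HOXD3 with HOXD4 and HOXD9 with HOXD10. As such sums the differences were 8.60, -1.85 and 0.77 kb for the 3 ranges of positions, against 7.86, -0.37 and 0.56 kb with each base once within a range. These values repeat the single genes and are given without a test: position 3 is HOXD3 alone and position 6 HOXC6 alone, since no paralogue in another cluster had a peak.

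The long non-coding RNA genes of the clusters were tested in their own limma fit over 3743 lncRNA genes, of which 43.6% were called, 18.0% higher and 25.6% lower. Of 5 in HOXD, all were tested and all were higher in shT2, with groups that did not overlap (63.0% of tested lncRNA genes had groups that did not overlap). These 5 calls are not independent, because windows share bases. HAGLROS lies inside HAGLR, and the windows of HOXD-AS2 and LOC401021 overlap. The windows of LOC100129455 and HAGLR also overlap those of HOXD8 and HOXD3. Of 7 in HOXC, 3 had a peak and 1 was tested. HAGLR, the gene that runs from HOXD3 toward HOXD1 and makes an antisense transcript also known as HOXD-AS1, had 5383, 5072 and 6046 bp in shT2, against 494, 0 and 0 bp in shNC3. It had the largest log2 difference of all tested genes of the clusters, at 3.18 (SE 0.30, limma adjusted p = 0.000684). HAGLROS, on the opposite strand of HAGLR, had 1773, 1933 and 2497 bp in shT2 and 327, 0 and 0 bp in shNC3 (log2 difference 2.05, limma adjusted p = 0.00203). Both are short of coverage in shNC3, so the fitted values depend on the 500 bp added before the log. For both genes the 3 shT2 samples alone met the minimum of 3 samples. Without shNC3 replicate 1 both were at 0 in shNC3, so their calls were close to built in. At equal depth the fitted values were 3.12 for HAGLR and 1.85 for HAGLROS. HAGLROS was not called in the gene span alone (0.58, limma adjusted p = 0.166) or with only peaks of at least 5-fold enrichment (0.99, limma adjusted p = 0.265).

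The other 3 HOXD lncRNA genes lie around HOXD8. LOC401021 had 6398 bp in each shT2 sample and 3929, 1347 and 3135 bp in shNC3 (log2 difference 1.02, limma adjusted p = 0.0301, and 1.05 at equal depth). Its call was lost without scaling (1.15, limma adjusted p = 0.0663), in the gene span alone (limma adjusted p = 0.0854) and without any 1 of the shT2 samples (1.00 to 1.05, limma adjusted p = 0.0672 to 0.0741). HOXD-AS2 had 3105, 3579 and 3105 bp in shT2 and 1898, 1347 and 2021 bp in shNC3 (log2 difference 0.62, limma adjusted p = 0.00781, and 0.65 at equal depth). In the gene span alone it was not called (0.039, limma adjusted p = 0.805). LOC100129455 had 2655, 2898 and 2655 bp in shT2 and 1808, 1808 and 1290 bp in shNC3 (log2 difference 0.48, limma adjusted p = 0.0322, and 0.51 at equal depth). It was not called in the gene span alone (0.049, limma adjusted p = 0.818), at 5-fold enrichment (0.40, limma adjusted p = 0.0928), with a replicate block (limma adjusted p = 0.0579) or without any 1 sample other than shNC3 replicate 2 (limma adjusted p = 0.0556 to 0.0907). In HOXC, LOC124902939 overlaps the start of HOXC6 and repeats its values: it was at 0 in shT2 and had 1396, 638 and 2210 bp in shNC3. It met the minimum of 3 samples through shNC3 alone, so its call was built in and its p is not given. HOXC-AS1 had 827 and 511 bp in shNC3 replicates 1 and 3, and HOXC-AS2 had 79 bp in shNC3 replicate 3. HOTAIR, the HOXC transcript studied for its effect on HOXD, had no peak in any sample.

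Of 8 microRNA hairpins in the cluster windows, 1 was under a peak. MIR10B, between HOXD8 and HOXD4, was covered over its whole 110 bp in all 3 shT2 samples and over 0 bp in all 3 shNC3 samples. This was not counted at equal depth. Within 2 kb of it 2511, 2251 and 2900 bp were covered in shT2, against 1590, 1590 and 1241 bp in shNC3, so peaks lay nearby with both hairpins. The microRNA hairpins of MIR10A, its paralogue in HOXB, and of MIR196A1, MIR196A2, MIR196B, MIR615, MIR3185 and MIR7704 were at 0 in all 6 samples. Within 2 kb of MIR615, 578 and 320 bp were covered in shT2 replicates 2 and 3. In shNC3 replicates 1 and 2 it was 327 and 363 bp. The mature 3p strands of the 2 paralogues, from RefSeq on GRCh38.p14, are shown with the seed (bases 2 to 8) in capitals. Their seeds differ.
hsa-miR-10b-3p, hairpin covered in 3 shT2 samples: aCAGAUUCgauucuaggggaau
hsa-miR-10a-3p, hairpin covered in no sample: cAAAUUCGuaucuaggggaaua

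The protein-coding genes next to the clusters were described in the same way. EVX2, the homeobox gene 3.53 kb from HOXD13, and LNPK beyond it had no peak in any sample, like HOXD13 itself. On the HOXD1 side MTX2 had 944, 439 and 461 bp in shT2 and 472, 436 and 320 bp in shNC3 and was not called (log2 difference 0.19, limma adjusted p = 0.557). HNRNPA3, 1022 kb from HOXD1, was higher by 0.49 (limma adjusted p = 0.000983). EVX1, SKAP2, SKAP1 and TTLL6, the nearest neighbours of HOXA and HOXB, had none in any sample. Beyond them HIBADH had 1 peak in shT2 replicate 3, SNX10 had a peak in shT2 replicates 2 and 3, CALCOCO2 had 1 in shNC3 replicate 1, and SNX11 was covered in all 6 and not called. Beside HOXC, ATP5MC2 (0.49, limma adjusted p = 0.0153) and SMUG1 (0.33, limma adjusted p = 0.00815) were higher on the log2 scale, and CALCOCO1 and CBX5 were not called.

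Genes that act with HOX proteins or on the clusters changed in both directions, and the counts are to be read against the 51.3% of all tested genes that were called. Of 7 tested genes for TALE cofactors, the homeodomain partners of HOX proteins on DNA, 2 were higher and 3 were lower. MEIS1 averaged 9.27 ± 0.581 kb in shT2, against 3.73 ± 0.343 kb in shNC3 (log2 difference 1.21, limma adjusted p = 7.67e-05), and MEIS2 29.3 ± 1.65 kb in shT2, against 10.1 ± 0.188 kb in shNC3 (1.49). PBX2 (-0.42) and MEIS3 (-0.29) were lower on the same scale. The median over the 7 was 0.0030. Of 2 tested DLX genes, homeobox genes linked to HOX clusters, DLX5 was higher (1.17) and DLX6 (0.27) was not called. Of 15 genes of the ParaHox and other HOX-linked homeobox families, 12 had no peak in any sample. GBX2 was listed at 0 in shT2, had 2.82 ± 0.486 kb in shNC3 and was tested through shNC3 alone, and GBX1 (0.16) was not called.

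Of 32 tested Polycomb subunit genes, 8 were higher and 10 were lower, and the median was -0.05. Among them AEBP2 (1.47), RBBP4 (0.74) and BCOR (0.32) were higher and PHF19 (-0.75) was lower on the log2 scale. Of 16 tested genes for trithorax (MLL) complexes and H3K27 demethylases, 5 were higher and 7 lower, and the median was -0.14. ASH1L averaged 37.7 ± 2.25 kb in shT2, against 9.19 ± 2.96 kb in shNC3 (2.03). KMT2A, the MLL gene itself, averaged 18.4 ± 0.961 kb in shT2, against 7.41 ± 0.503 kb in shNC3 (1.26), and KMT2C was also higher (1.12), while MEN1 was lower (-1.16). Counting only the gene ends, KMT2A stood at -0.05, ASH1L at 0.060 (limma adjusted p = 0.746) and PHF19 at -0.23 (limma adjusted p = 0.114), and none of these was called. AEBP2 was not called at 5-fold enrichment (0.83, limma adjusted p = 0.427). Of 9 tested upstream regulators of HOX genes, 3 were higher and 3 lower. The retinoic acid receptor genes differed in direction: RARA (-0.33), RARG (-1.20) and their partner RXRB (-0.58) were lower, and RARB and the partner RXRA (0.28, limma adjusted p = 0.0432) were higher. RARB was listed at 0 in shNC3 and was tested through shT2 alone. RXRA lost its call under 8 of 17 alternatives, equal depth among them (0.27, limma adjusted p = 0.0646), and RARA lost its call without scaling (-0.17, limma adjusted p = 0.0721). CTCF, the boundary factor, was higher (0.72).

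Markers of the neuroblastoma cell states differed between the hairpins. Of 13 tested noradrenergic (neuron-like) markers, 7 were higher in shT2 and 1 was lower, against 24.2% of all tested genes higher and 27.2% lower. The higher calls numbered 4 to 8 and the lower calls 0 to 4 over 17 alternatives. The list had a summed covered length over all 15 between 139.9 and 149.9 kb with shT2 and between 116.6 and 127.9 kb with shNC3. ELAVL4 (1.18), CHGA (1.06), DDC (0.94) and STMN2 (0.64) were among those higher on the log2 scale. TBX2 (-0.17) was the 1 called lower. PHOX2A (-0.17), HAND2 (-0.18), GATA2 (-0.08), DBH (-0.08) and GATA3 (0.07) were not called, and TH had no peak in any sample. Counting only the gene ends, DDC stood at 0.096 (limma adjusted p = 0.842) and STMN2 at -0.12 (limma adjusted p = 0.435), and neither was called. Of 12 tested mesenchymal (substrate-adherent) markers, none was higher and 8 were lower. PRRX1, YAP1 and CD44, 3 of the 8, had no peak in shT2 and were tested through shNC3 alone, so their calls were built in. Without them 5 of 9 were lower, against 25.5% of all genes with a peak in both groups. The list had a sum over all 15 between 29.6 and 32.2 kb with shT2 and between 80.4 and 85.8 kb with shNC3. COL1A1 had 0.216 ± 0.187 kb in shT2, against 14.3 ± 0.776 kb in shNC3 (n = 3, SD), FOSL1 (-1.43) and LGALS1 (-1.36) were lower, and PRRX1, YAP1, CD44 and WWTR1 were listed at 0 in every shT2 sample. COL1A2 and SNAI2 were at 0 in all 6 samples. The part of cell state in the HOX differences was not tested. The lists of related genes were written with earlier results of these data known and are no independent evidence.

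**Figure D5:**
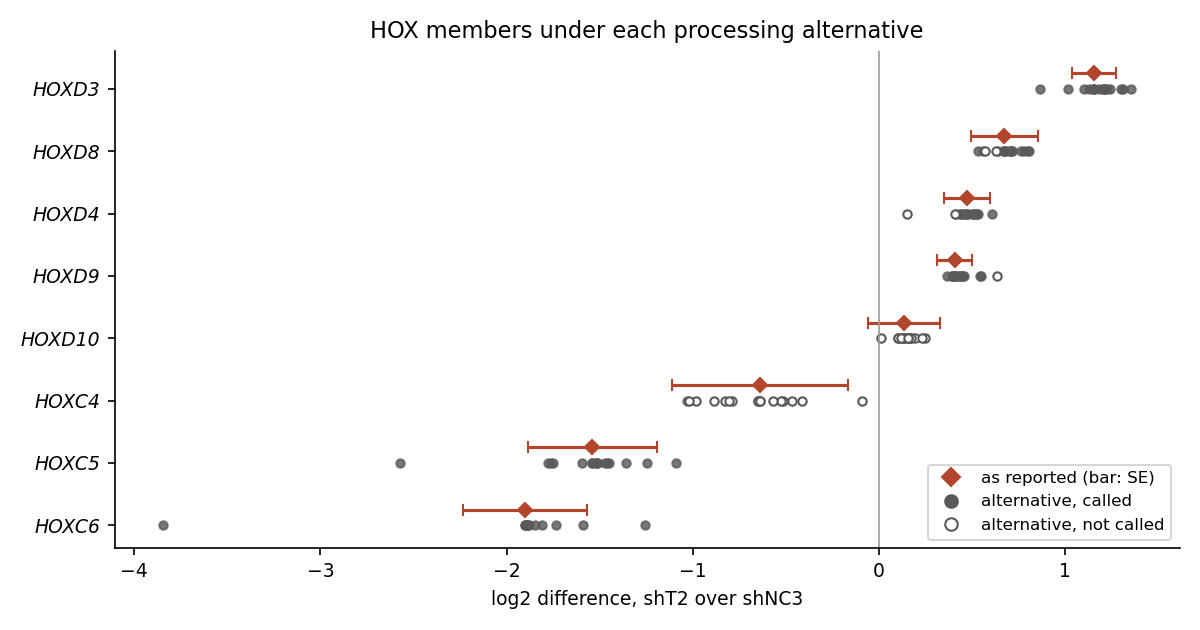
Log2 difference (shT2 over shNC3) of the 8 tested HOX genes. Diamonds are the values reported with their SE, and circles are the values under each processing alternative, filled where the gene was called and open where it was not. HOXD3 stays between 0.87 and 1.36 and is called throughout, HOXD10 lies near 0, and HOXC4 spreads from -1.03 to -0.09. HOXC6 had no peak in shT2 and was tested through shNC3 alone, so its place and its filled circles were built in.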

How the data were processed

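The data are 6 lists of narrow peaks, 1 per sample. Alignment with Bowtie2 2.4.4 and SAMtools and peak calling with MACS2 2.2.6 on hg38 are per the submitters' processing notes. No source used here names the control that entered peak calling. As the authors deposited them, the lists hold peak positions, an integer score (not used further), fold enrichment as a ratio over local background, and the −log10 p-value and −log10 q-value, up to a q of 0.01. Positions are printed 1-based.

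Covered bp was counted in each RefSeq gene span plus 2 kb, scaled to total covered length and fitted as log2(bp + 500) in limma 3.58.1 under R 4.3.3 (lmFit, then eBayes with robust and trend set, all 6 samples, no covariates) over genes with a peak in at least 3 samples. Benjamini-Hochberg adjustment ran over all genes tested. The fit was tested on simulated data. Cluster totals were compared with two-sided exact permutation tests, computed in Python 3.11.15. Those planned for paralogue sums are not given, because they would be a p over chosen members. Depth was recovered by solving the Poisson p-value for whole reads, and equal depth was set by thinning, which drops peaks but does not narrow them. Alternatives covered scaling, pseudocounts of 100 and 1000 bp, filters, peak thresholds, windows, a replicate block and leaving out each sample. The members and gene lists were chosen with earlier results of these data known. Counting each base of a position group once, the counts over genes with peaks in both groups, base sharing, regions, peak ends and promoter coverage were added after the peaks were seen, and so was the restriction-site check, whose 2 bp limit followed a first look at wider distances. Every HOX gene is accounted for. Of each related list, up to 4 tested members with the smallest p are named, with the nearest 2 coding genes on each side of a cluster. RARB, RXRA, YAP1, CD44, WWTR1, COL1A2 and SNAI2 were named outside this rule, after their values were seen. So were TBX2, PHOX2A, HAND2, GATA2, GATA3, DBH and TH. The upstream regulator list lost 1 of 21 symbols that matched no gene. Same-numbered samples of both hairpins had deviations correlated at -0.02, -0.06 and -0.01, so the numbers do not pair the samples.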

Additional observations from a re-analysis of the deposited data

How the results depend on the processing

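HOXD covered length kept its direction under 12 of 12 alternatives (20.8 to 24.9 kb longer in shT2), and so did HOXC (-2.48 to -0.88 kb). Of the HOX genes, 2 were called higher in the gene span alone, and 3 to 4 when 1 sample was left out. At 5-fold enrichment 0 were called lower, because HOXC5 and HOXC6 then had too few samples with a peak to be tested, and with 1 sample left out 1 to 2 were: without any 1 shNC3 sample HOXC6 had too few samples with a peak to be tested. HOXD8 had a limma adjusted p of 0.0599 at 5-fold enrichment. The sum at paralogue position 4 changed sign, to -0.12 kb at 5-fold enrichment, -0.042 kb at −log10 q of at least 5, -0.52 kb with equal numbers of peaks, -0.39 kb in gene spans, -0.56 kb at gene ends, and between -0.90 and 0.95 kb with 1 sample left out (-0.03 kb without shT2 replicate 2, -0.90 kb without shT2 replicate 3, -0.69 kb without shNC3 replicate 2). An alternative chosen after seeing the data, only genes with a peak in both groups, left 1 HOX gene lower. HOX lncRNA calls numbered 3 at 5-fold enrichment, 2 in gene spans and 4 to 5 with 1 sample left out. All genes called higher numbered 1846 at 5-fold enrichment and 1572 at gene ends, all called lower 1955 at 5-fold enrichment and 2044 without scaling, and called members of the related lists 37 at 5-fold enrichment. Among the other named genes, differences changed sign without scaling for SNX11 (0.11) and CBX5 (0.075), at −log10 q of at least 5 for MTX2 (-0.27), at gene ends for KMT2A (-0.049), STMN2 (-0.12), SNX11 (0.33), ATP5MC2 (-0.088) and MTX2 (-0.0015), without shT2 replicate 1 for MTX2 (-0.011, with 0.31 as the highest value when 1 sample was left out) and without shNC3 replicate 3 for CBX5 (0.0064). The cause was not tested. Calls were also lost by HNRNPA3 at gene ends (0.19), SMUG1 at 5-fold enrichment (0.35), ATP5MC2 without shT2 replicate 3 (0.45) and RARB without any 1 shNC3 sample (0.81 to 0.82), and gained by DLX6 under 6 of 17 alternatives and CALCOCO1 at gene ends (1.20). Over the same alternatives Polycomb calls ran from 4 to 9 higher and 3 to 10 lower, trithorax calls from 2 to 5 and 2 to 8, upstream regulators from 1 to 5 and 2 to 4, and mesenchymal markers from 5 to 9 lower. With a replicate block, 4 HOX genes were called higher and 2 lower, 2825 genes in all higher and 2866 lower, no sample correlated best with its own number, and LOC100129455 and RARB lost their calls (limma adjusted p = 0.0579 and 0.0670). At equal depth HOXD stood at 22.7 kb, with 4 HOX genes higher and 2 lower. Thinning drops peaks without narrowing them, so peak length at equal depth was not tested. In this design 3 samples against 3 limit every permutation test to 0.1.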
